A study of Homo sapiens with 8 samples.

Results

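The genes described here are 10 feedback inhibitors of the ERK pathway: the dual-specificity phosphatases DUSP1, DUSP2, DUSP4, DUSP5 and DUSP6, the Sprouty genes SPRY1, SPRY2 and SPRY4, and the Sprouty-related genes SPRED1 and SPRED2. They were chosen by name, each matched to 1 Ensembl gene among the 34618 genes of the deposited tables. Stranded, poly(A)-selected RNA sequencing had been done on 8 libraries of THP1, a human acute monocytic leukaemia cell line. The 4 RRM2_OE libraries came from THP1 cells engineered with the iRxI/AxA mutant, which a second label calls RRM2 OE, and the 4 MOCK libraries from THP1 cells engineered with an empty vector. Doxycycline (2 µg/mL) was given in both groups. The sources used here do not name the vector's promoter, the time on doxycycline or whether each line was a clone. Nothing in the labels says that each replicate had a culture of its own, and p-values here rest on the spread among libraries, which may be technical.

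ERK, the last kinase of the RAS-RAF-MEK cascade, is switched on by growth factor and cytokine receptors, and among the genes it induces are its own inhibitors. DUSP1, DUSP2, DUSP4 and DUSP5 encode nuclear phosphatases that remove phosphate from both the threonine and the tyrosine of the MAP kinase activation loop, while DUSP6 encodes a cytoplasmic phosphatase with a preference for ERK. Sprouty proteins damp signalling between receptor and RAF, and SPRED proteins act on RAS together with neurofibromin, the product of NF1. Transcripts of these genes, DUSP6 and SPRY4 above all, are in common use as readouts of ERK activity in tumour cells, and leukaemia cells of the myeloid lineage often carry an activated RAS pathway. Kinase activity and protein levels are not part of these data.

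Of the 10 genes, 3 rose in RRM2_OE and 0 fell: DUSP4, DUSP6 and SPRY1. The rises were small, 1.20-fold for DUSP4, 1.19-fold for DUSP6 and 1.33-fold for SPRY1. Each was tested with edgeR's quasi-likelihood test and called at a Benjamini-Hochberg adjusted p below 0.05 over all 15286 genes that passed a filter on low counts. SPRED1 did not pass that filter, so the 3 are among 9 tested genes. The background at the same threshold was 7.41% of genes called higher and 5.42% called lower in RRM2_OE. Rises were 57.7% of all calls. They were 69.2% with limma on log2(RPKM + 1), 68.7% on log2(RPKM + 0.1) and 51.8% with replicate number as a block in edgeR. All 9 tested genes had a log2 fold change above 0, as had 49.4% of all genes tested, and their median was 0.25 against -0.00 over all genes. With every edgeR estimate above 0, no member could be called lower by edgeR at any threshold. DESeq2 and limma-voom also gave 0 falls, with no estimate below 0.

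Library totals lay between 10994255 and 11686152 counts. RRM2, which encodes the small subunit of ribonucleotide reductase and is the gene named in the labels, stood at 215 to 236 CPM (counts relative to the TMM-scaled library size) in RRM2_OE and at 116 to 128 CPM in MOCK. A further difference crossed the groups: replicates 1 and 3 stood apart from replicates 2 and 4 in both, and 30.4% of genes differed between odd and even replicate numbers. Of the 9 tested members, 3 were higher in odd-numbered libraries (DUSP1, DUSP6 and SPRED2), against 15.4% of all genes. Counts with replicate number as a block are given where they differ from the main ones. Of 14 tested monocyte and myeloid markers, 6 were higher (42.9%) and 2 lower (14.3%) in RRM2_OE, against 7.41% and 5.42% of all genes. Under the block 7 were higher and 2 lower, against 15.1% and 14.0% of all genes. The list of 15, which includes MPO, summed to 4335 to 4408 CPM in RRM2_OE and 4419 to 4615 CPM in MOCK. LYZ, which encodes lysozyme, was at 2090 to 2307 CPM in RRM2_OE and 1595 to 1807 CPM in MOCK. MPO, the granule peroxidase gene, went the other way, at 419 to 512 CPM in RRM2_OE and 1079 to 1354 CPM in MOCK, and MNDA was also lower. The macrophage marker CD68 did not exceed 1.13 CPM in any library. The erythroid and megakaryocytic genes GATA1 and ITGA2B, which are not commonly described for THP1, did not fall below 96.1 CPM in any library. Summed levels were 597.5 to 639 CPM in RRM2_OE and 610.4 to 638 CPM in MOCK for 10 erythroid and megakaryocyte markers. Of the 9 tested, ITGA2B and PPBP were higher (22.2%) and ALAS2, HBG1 and HBG2 lower (33.3%) in RRM2_OE, against 7.41% and 5.42% of all genes. With the block 2 were higher and 5 lower, against 15.1% and 14.0% of all genes. The 9 T and NK cell markers summed to 151 to 165 CPM in RRM2_OE and 111 to 117 CPM in MOCK. Of 5 tested, 4 were higher (80.0%, against 7.41% of all genes), although CD3E, CD3G and CD2 stayed below 0.70 CPM throughout. Sums for 6 B cell markers were 12.8 to 14.8 CPM in RRM2_OE and 10.7 to 13.2 CPM in MOCK. Those for 9 epithelial and fibroblast markers, of which KRT19 had 0 counts, were 32.6 to 36.8 CPM in RRM2_OE and 30.4 to 37.4 CPM in MOCK. The part of these markers in the changes of the ERK feedback genes was not tested, and in bulk RNA fewer cells of a type and less RNA per cell cannot be told apart.

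DUSP6, the cytoplasmic ERK phosphatase, was the most abundant of the 10 genes. The gene (ENSG00000139318) lies on the minus strand of chromosome 12 at 89741009 to 89747048 (hg19, as in the deposited tables). Its level was 155, 133, 157 and 139 CPM in RRM2_OE replicates 1 to 4, against 129.7, 122, 123 and 114 CPM in MOCK replicates 1 to 4. Every RRM2_OE library lay above every MOCK library, and the closest pair, RRM2_OE replicate 2 and MOCK replicate 1, differed by little. Among all genes tested, 10.5% showed every RRM2_OE library above every MOCK library and 8.89% the opposite. The log2 fold change was 0.25 (SE 0.06, adjusted p = 0.0174, edgeR). It did not pass once RRM2_OE replicate 1, RRM2_OE replicate 3 or MOCK replicate 4 was omitted: the edgeR adjusted p was then 0.0554, 0.0548 and 0.0548, and the log2 fold change 0.22 in each case. The highest RRM2_OE values and the highest MOCK value came from odd-numbered libraries. DUSP6 was itself higher in odd-numbered libraries, by 0.15 on the log2 scale (SE 0.03, adjusted p = 3.22e-04, edgeR with a term for the group), and with that term its group difference was 0.25 (SE 0.03).

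DUSP4, a nuclear phosphatase induced by ERK, also rose in RRM2_OE. The gene (ENSG00000120875) is on the minus strand of chromosome 8 at 29190581 to 29208185 (hg19). It stood at 71.8, 79.8, 79.3 and 79.8 CPM in RRM2_OE replicates 1 to 4, against 68.0, 62.2, 65.1 and 64.2 CPM in MOCK replicates 1 to 4. The groups did not overlap, and RRM2_OE replicate 1 was the low library of its group. The log2 fold change was 0.26 (SE 0.05, adjusted p = 0.00692, edgeR), and it stayed called whichever single library was left out (0.24 to 0.295). Between odd and even replicate numbers DUSP4 gave a log2 fold change of -0.01 (SE 0.04, adjusted p = 0.923, edgeR).

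The other nuclear phosphatases did not pass the test without the block. DUSP1, an early response phosphatase with a preference for p38 and JNK, was at 16.01, 12.5, 15.9 and 13.8 CPM in RRM2_OE replicates 1 to 4, against 15.1, 11.2, 12.8 and 9.33 CPM in MOCK replicates 1 to 4. In both groups the odd-numbered libraries were the higher ones, and the groups overlapped. Its log2 fold change was 0.26 (SE 0.14, adjusted p = 0.241, edgeR). DUSP1 differed more clearly by replicate number, being 0.35 higher on the log2 scale in odd-numbered libraries (SE 0.09, adjusted p = 0.00158, edgeR). With replicate number as a block the group difference was 0.27 (SE 0.09, adjusted p = 0.0258, edgeR) and passed. DUSP5, a nuclear phosphatase that acts on ERK alone among the MAP kinases, was at 39.7, 35.5, 37.7 and 32.99 CPM in RRM2_OE replicates 1 to 4, against 33.9, 31.7, 33.5 and 32.0 CPM in MOCK replicates 1 to 4. Only RRM2_OE replicate 4 fell within the MOCK range. The log2 fold change of DUSP5 was 0.15 (SE 0.07, adjusted p = 0.166, edgeR), and with the block 0.15 (SE 0.06, adjusted p = 0.0383, edgeR). DUSP2, a phosphatase abundant in activated leukocytes, lay between 14.6 and 16.3 CPM in RRM2_OE and between 12.8 and 18.99 CPM in MOCK, so that the RRM2_OE range sat inside the MOCK range. It gave 0.02 (SE 0.11, adjusted p = 0.951, edgeR), with opposite signs in replicates 1 and 3 (-0.15, SE 0.12) and in replicates 2 and 4 (0.20, SE 0.12). Whether these subsets differ was not tested.

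Among the Sprouty genes, SPRY1 had the largest fold change of the 9 tested genes. The gene (ENSG00000164056) is on the plus strand of chromosome 4 at 124317950 to 124324910 (hg19). Its level was 10.6, 10.5, 11.1 and 10.8 CPM in RRM2_OE replicates 1 to 4, against 8.10, 7.96, 8.96 and 7.45 CPM in MOCK replicates 1 to 4. The 4 RRM2_OE libraries were nearly level with each other and all lay above MOCK. These levels rested on 121 to 128 counts per library in RRM2_OE and 83 to 100 in MOCK. The log2 fold change was 0.41 (SE 0.09, adjusted p = 0.0131, edgeR), and 0.37 to 0.46 with any single library left out, called each time. In replicates 1 and 3 alone it was 0.34 (SE 0.15, adjusted p = 0.0948, edgeR) and did not pass.

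SPRY2, the most abundant Sprouty gene here, was at 49.3, 49.4, 46.5 and 50.1 CPM in RRM2_OE replicates 1 to 4, against 44.0, 47.2, 39.9 and 46.0 CPM in MOCK replicates 1 to 4. RRM2_OE replicate 3 fell below MOCK replicate 2, and replicate 3 was the lowest library of both groups. The log2 fold change was 0.14 (SE 0.06, adjusted p = 0.172, edgeR), and with the block 0.14 (SE 0.05, adjusted p = 0.0302, edgeR). SPRY4 lay between 6.91 and 8.19 CPM in RRM2_OE and between 5.20 and 7.48 CPM in MOCK, with overlap. Its log2 fold change of 0.25 was as large as that of DUSP6 but rested on 58 to 94 counts per library and did not pass (SE 0.13, adjusted p = 0.223, edgeR), nor did it with the block (adjusted p = 0.109, edgeR).

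The SPRED genes gave no call. SPRED2 lay between 42.3 and 55.8 CPM in RRM2_OE and between 41.7 and 50.9 CPM in MOCK, and RRM2_OE replicate 3 was the highest of the 8 libraries. Its log2 fold change was 0.08 (SE 0.09, adjusted p = 0.643, edgeR), and -0.01 without that library (adjusted p = 0.957, edgeR). SPRED2 differed by replicate number, being 0.19 higher on the log2 scale in odd-numbered libraries (SE 0.06, adjusted p = 0.00583, edgeR). SPRED1, whose loss in the germline causes Legius syndrome, was nearly silent, with 4 to 11 counts per library in RRM2_OE and 7 to 12 in MOCK, and was not tested.

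**Figure D1:**
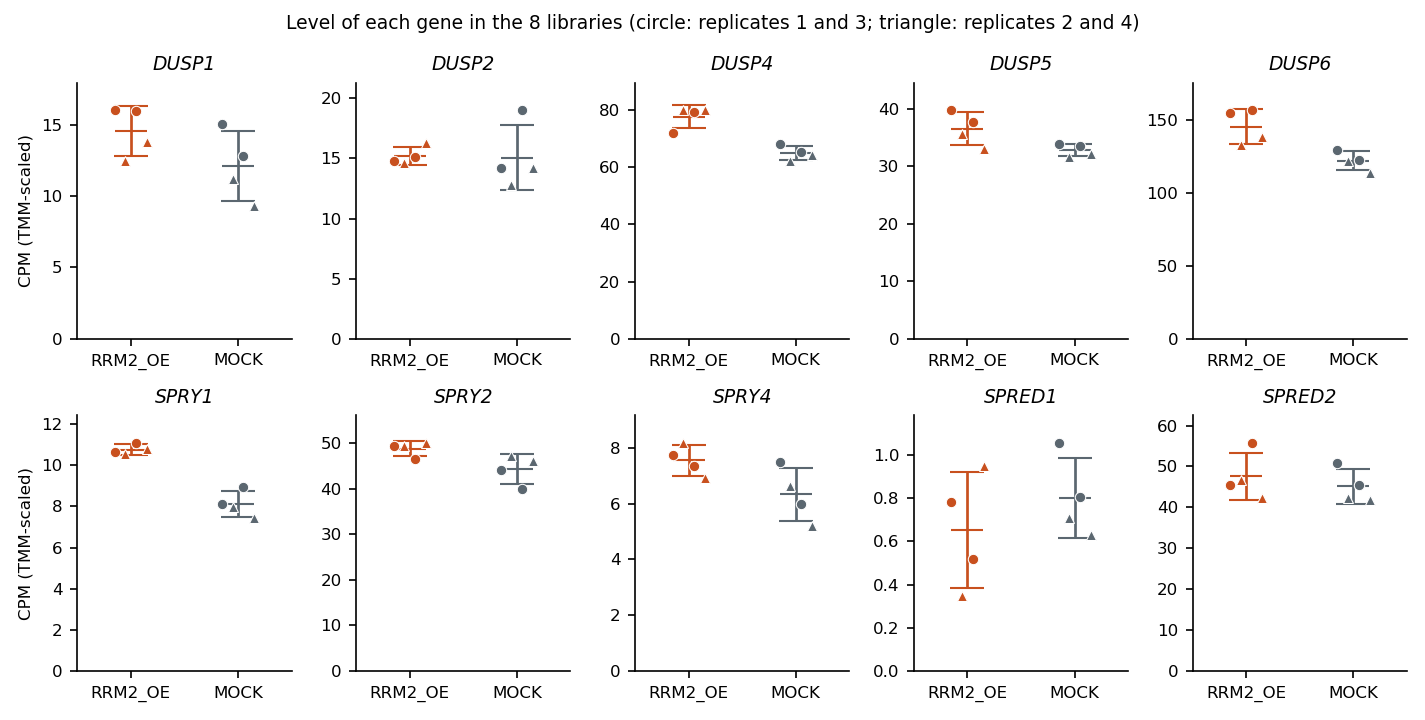
Level of each of the 10 genes in CPM on TMM-scaled library sizes (y axis, starting at 0) in the 4 RRM2_OE and 4 MOCK libraries, with mean and SD as bars, circles for replicates 1 and 3 and triangles for replicates 2 and 4. The groups do not overlap for DUSP4, DUSP6 and SPRY1. In both groups circles lie above triangles for DUSP1, DUSP5 and DUSP6, and below them for SPRY2.

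With replicate number as a block, 6 of the 9 tested genes were higher and 0 lower, DUSP1, DUSP5 and SPRY2 joining the 3 named above. That count has to be read against a larger background, since the block called 15.1% of all genes higher and 14.0% lower. The fold changes themselves hardly moved: the block narrowed the SE of DUSP6 to 0.04, against 0.06 without it, while that of SPRY1 became 0.10, against 0.09.

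**Figure D2:**
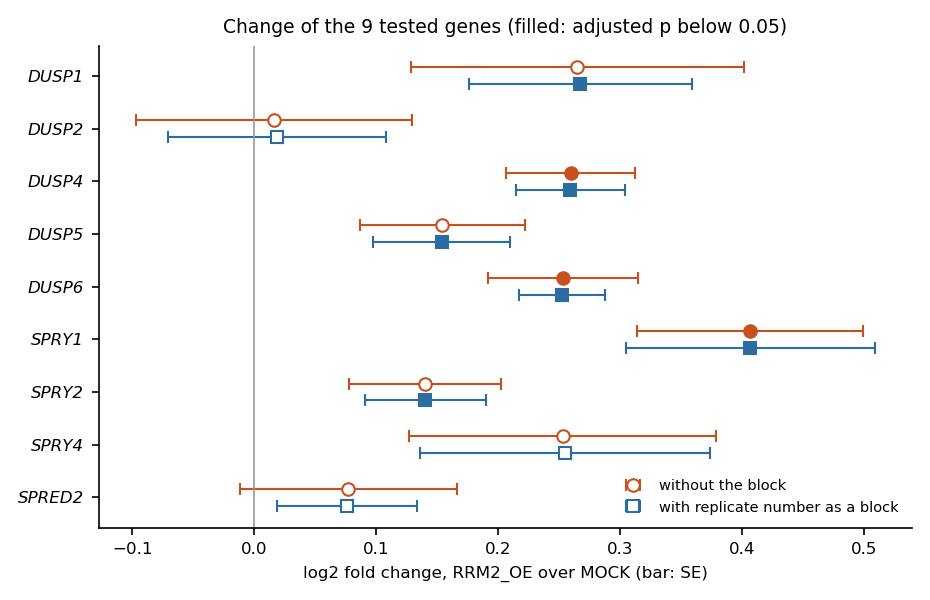
Log2 fold change of RRM2_OE over MOCK (x axis) for the 9 tested genes, without the block (circles) and with replicate number as a block (squares), with SE as bars and filled symbols where the edgeR adjusted p is below 0.05. Without the block 3 symbols are filled and with it 6, at nearly the same positions.

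**Figure D3:**
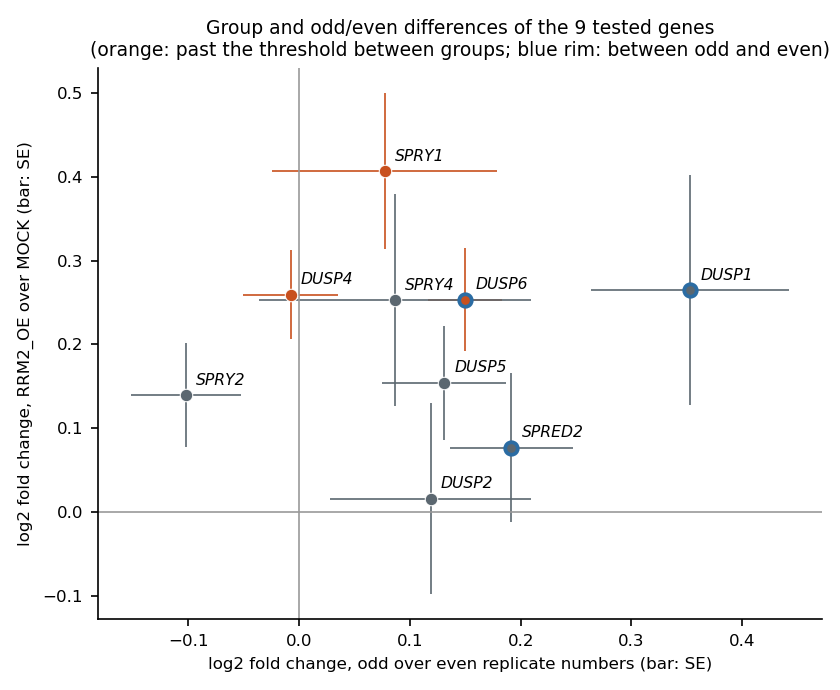
Log2 fold change of RRM2_OE over MOCK (y axis) against that of odd over even replicate numbers (x axis) for the 9 tested genes, with SE as bars. DUSP6, DUSP1 and SPRED2 passed the threshold between odd and even numbers (blue rim), and of these DUSP6 also passed between the groups (orange).

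Between genes, levels were compared per exon length, in the authors' RPKM. The order was the same in RRM2_OE and MOCK. DUSP6 came first, at 31.5 ± 2.17 RPKM in RRM2_OE and 26.2 ± 0.932 RPKM in MOCK (mean ± SD, n = 4 each), and its range met that of no other member in either group. SPRY2 (14.9 RPKM in RRM2_OE and 13.4 in MOCK) and DUSP5 (14.0 in RRM2_OE and 12.5 in MOCK) followed, with overlapping ranges. DUSP4, SPRED2, DUSP2 and DUSP1 came next, at means of 10.7 down to 7.22 RPKM in RRM2_OE and 8.88 down to 5.95 RPKM in MOCK, each overlapping its neighbour. SPRY1 (2.73 RPKM in RRM2_OE and 2.04 in MOCK), SPRY4 (1.28 in RRM2_OE and 1.06 in MOCK) and SPRED1 (0.0789 in RRM2_OE and 0.0959 in MOCK) were each clear of the next. The member with the largest fold change was thus among the lowest in level. Summed over the 10 genes, the level was 390 to 426 CPM in RRM2_OE and 335 to 372 CPM in MOCK. DUSP6 made up 30.1% to 32.8% of the summed RPKM of the 10 genes in RRM2_OE and 29.8% to 31.0% in MOCK.

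Promoter sequences are shown for the called genes that the RefSeq table holds, DUSP6 and SPRY1, and for DUSP1, whose promoter holds a cyclic AMP response element. The table holds 8 of the 10 members, without DUSP4 and DUSP5. Each is the 250 bases before an annotated start, in lower case with motif matches in capitals, 5′ to 3′ on the gene's strand (GRCh38.p14, a different build from the hg19 positions above). DUSP6 covers chr12:89352502-89352751 on the minus strand, the SPRY1 starts cover chr4:123396545-123396794 and chr4:123398136-123398385 on the plus strand, and DUSP1 covers chr5:172771196-172771445 on the minus strand.
DUSP6: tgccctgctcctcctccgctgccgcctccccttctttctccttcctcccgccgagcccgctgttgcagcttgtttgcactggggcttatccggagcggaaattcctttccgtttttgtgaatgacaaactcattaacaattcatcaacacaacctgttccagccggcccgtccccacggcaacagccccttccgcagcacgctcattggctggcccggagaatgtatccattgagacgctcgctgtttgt
SPRY1, upstream start: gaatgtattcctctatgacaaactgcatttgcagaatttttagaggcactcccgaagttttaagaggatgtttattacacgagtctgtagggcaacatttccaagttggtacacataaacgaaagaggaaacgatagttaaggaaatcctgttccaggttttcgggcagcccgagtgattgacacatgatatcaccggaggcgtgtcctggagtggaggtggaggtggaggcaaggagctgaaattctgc
SPRY1, downstream start: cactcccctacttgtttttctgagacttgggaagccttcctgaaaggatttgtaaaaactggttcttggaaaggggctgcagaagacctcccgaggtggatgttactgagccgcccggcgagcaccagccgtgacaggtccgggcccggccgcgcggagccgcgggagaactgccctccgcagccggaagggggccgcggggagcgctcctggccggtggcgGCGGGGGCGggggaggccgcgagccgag
DUSP1: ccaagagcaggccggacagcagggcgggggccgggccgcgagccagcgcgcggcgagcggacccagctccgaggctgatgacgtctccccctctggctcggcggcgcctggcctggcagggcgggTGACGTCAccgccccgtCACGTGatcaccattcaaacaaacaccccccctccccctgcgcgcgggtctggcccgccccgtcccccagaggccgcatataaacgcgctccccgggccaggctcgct
The motifs searched on both strands were the cyclic AMP response element TGACGTCA, the AP-1 site TGANTCA, the ETS site CCGGAAGT, the EGR site GCGNGGGCG, the E-box CACGTG and the serum response CArG box. In these windows DUSP6 and the upstream SPRY1 start held 0 matches. The downstream SPRY1 start held an EGR site starting 28 bases before the start, a motif found in 8.41% of the 35116 promoters of the table. EGR sites also lay before starts of DUSP2, SPRY2 and SPRY4, and an E-box before that of DUSP2. These genes were not called without the block, and their promoters are not shown. DUSP1 was not called without the block either, and its promoter was picked for its match. DUSP1 held a cyclic AMP response element starting 125 bases before the start (1.65% of promoters) and an E-box starting 108 bases before it (6.34% of promoters). A match is a string of letters, not a measured binding site.

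Of 37 tested early and target genes of ERK, 16 rose and 1 fell, with a median log2 fold change of 0.23, against 7.41% higher and 5.42% lower over all genes. With the block 20 rose and 1 fell, against 15.1% and 14.0% of all genes, and CCND1, EGR2, JUNB and NR4A1 were the added ones. HBEGF, a ligand of the EGF receptor, reached 52.3 ± 2.83 CPM in RRM2_OE, against 33.2 ± 0.851 CPM in MOCK (mean ± SD, n = 4 each; log2 fold change 0.66, SE 0.06, adjusted p = 2.17e-05, edgeR). EGFR, the gene of that receptor, had at most 1 count in any library and was not tested. The stress-induced factor ATF3 (0.79) and the early response gene IER3 (0.37) rose as well. The gene that fell was MYC, a growth-promoting transcription factor, at 206.5 ± 5.71 CPM in RRM2_OE and 289.7 ± 12.7 CPM in MOCK (mean ± SD, n = 4 each). The rise was uneven across early genes. Chosen after their values were seen, EGR1 gave 0.03 (adjusted p = 0.921, edgeR) and FOS 0.02 (adjusted p = 0.8996, edgeR), and the ERK-responsive ETS factors ETV4 (0.20) and ETV5 (0.11) did not pass either. Nuclear receptors of the NR4A group, also picked afterwards, gave 0.39 for NR4A1 (adjusted p = 0.0564, edgeR, and 3.14e-06 with the block), 0.42 for NR4A2 and 0.37 for NR4A3, of which the last 2 rose without the block.

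**Figure D4:**
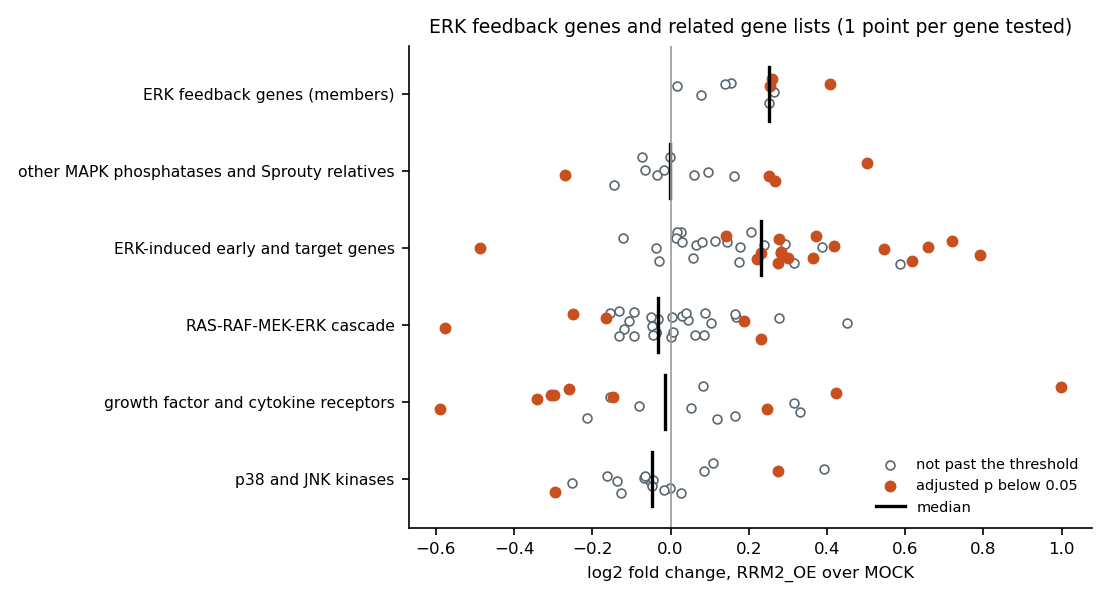
Log2 fold change of RRM2_OE over MOCK (x axis) for every tested gene of the ERK feedback genes and of 5 related lists, filled where the edgeR adjusted p is below 0.05, with the list median as a black bar. The medians lie at 0.25 for the ERK feedback genes and 0.23 for the early and target genes, and between -0.05 and -0.00 for the other lists.

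Of 33 cascade genes, 2 rose (6.06%) and 3 fell (9.09%), near the 7.41% and 5.42% of all genes, with a median of -0.03. KSR1, a scaffold for RAF and MEK, gave 0.23 and RASGRP3, an activator of RAS, 0.19. RASGRP2, an activator of RAP1, fell by 0.58 on the log2 scale, the kinase BRAF fell by 0.25 and the adaptor SHC1 fell by 0.17. Several of these calls were close to the threshold, with fold changes that moved little when a library was omitted. KSR1 did not pass without RRM2_OE replicate 1 or 3 or MOCK replicate 2 or 4 (log2 fold changes of 0.195 to 0.22, edgeR adjusted p at most 0.0777). RASGRP3 passed only without RRM2_OE replicate 3 or MOCK replicate 2, among the 8 omissions tried (adjusted p otherwise at most 0.0912, edgeR). SHC1 passed in none of them (-0.19 to -0.15 on the log2 scale, adjusted p at most 0.112, edgeR), nor with DESeq2 (adjusted p = 0.0695), and RASGRP3 did not pass with limma on log2(RPKM + 1) (adjusted p = 0.0806). With the block, 5 cascade genes rose and 8 fell, against 15.1% and 14.0% of all genes. NF1, the partner of the SPRED proteins, was picked outside the naming rule; it gave -0.09 (SE 0.05, adjusted p = 0.227, edgeR) and did not pass, but did with the block (adjusted p = 0.0298).

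Phosphatases outside the feedback set went both ways. Of 13 tested relatives, 3 rose (23.1%) and 1 fell (7.69%), against 7.41% and 5.42% of all genes, with a median of -0.00. DUSP16, a phosphatase for JNK and p38, rose by 0.50 on the log2 scale (SE 0.09, adjusted p = 0.00246, edgeR), DUSP10, which acts on the same kinases, rose by 0.27 and the atypical phosphatase DUSP22 rose by 0.25. DUSP10 did not pass once RRM2_OE replicate 3 or MOCK replicate 3 was omitted (edgeR adjusted p = 0.0603 and 0.0561), nor in replicates 2 and 4 alone (0.20, adjusted p = 0.136). DUSP3, an atypical phosphatase that can act on ERK and JNK, fell by 0.27 (SE 0.06, adjusted p = 0.00970, edgeR). Also picked outside the naming rule, DUSP7, of the same cytoplasmic subfamily as DUSP6, gave -0.06 (adjusted p = 0.761, edgeR), and SPRY3 gave -0.00 (adjusted p = 0.997, edgeR). DUSP8, DUSP9, DUSP26, PTPRR and SPRED3 were too low to be tested.

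Of 18 tested receptors that feed the pathway, 3 rose (16.7%) and 6 fell (33.3%), against 7.41% and 5.42% of all genes, with a median of -0.02. CSF1R, the receptor for macrophage colony-stimulating factor, rose by 0.25, PDGFRB by 0.42 and AXL by 0.998 on the log2 scale, the last at 1.43 ± 0.395 CPM in RRM2_OE and 0.711 ± 0.141 CPM in MOCK (mean ± SD, n = 4 each). PDGFRB did not pass without RRM2_OE replicate 2 or 3 or MOCK replicate 2, 3 or 4 (edgeR adjusted p at most 0.0915). AXL passed only without RRM2_OE replicate 3 or 4, among the 8 omissions tried (adjusted p otherwise at most 0.109, edgeR), and it did not pass with DESeq2 (adjusted p = 0.0798). CSF3R, the granulocyte colony-stimulating factor receptor, stood at 178 ± 17.3 CPM in RRM2_OE and 268 ± 19.8 CPM in MOCK (mean ± SD, n = 4 each) and fell by 0.59 on the log2 scale, IL6R fell by 0.26 and IGF1R fell by 0.30. IGF1R did not pass with limma on log2(RPKM + 0.1) (adjusted p = 0.0560). With the block, 6 receptors rose and 6 fell, against 15.1% and 14.0% of all genes. Of 17 tested p38 and JNK pathway kinases, 1 rose and 1 fell (5.88% each, near the 7.41% and 5.42% of all genes), with a median of -0.05: MAP3K8, a kinase upstream of MEK, rose by 0.28 and MAP2K5, the kinase of ERK5, fell by 0.295. MAP3K8 did not pass without RRM2_OE replicate 2 or 4 or MOCK replicate 1, 2 or 4 (edgeR adjusted p at most 0.0735), nor in replicates 1 and 3 alone (0.16, adjusted p = 0.236). With the block, 2 of these kinases rose and 2 fell, against 15.1% and 14.0% of all genes.

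For each called member, the 3 genes with the most similar profile were sought by Pearson's r of log2 CPM over the 8 libraries, among 11894 other genes with a mean of at least 5 CPM. They are given as a description, since the libraries share the groups and the odd and even numbers. DUSP6 was most like CSRNP1 (r = 0.995), TPSAB1 (r = 0.993) and CD44 (r = 0.992), of which CSRNP1 encodes a nuclear protein, TPSAB1 a mast cell tryptase with near-identical copies and CD44 a hyaluronan receptor. DUSP4 was most like CALCRL (r = 0.989), PSME2 (r = 0.979) and CD83 (r = 0.975). SPRY1 was most like the chemokine gene CCL24 (r = 0.991), SCIMP (r = 0.988) and PCNX2 (r = 0.987).

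Overlapping genes had few counts of their own. The gene opposite DUSP1 had at most 2 counts in any library, SPRY4-AS1 opposite SPRY4 at most 2, and an unnamed gene on the strand of SPRED2 at most 1. The handling of reads falling on both genes is not known here, and any left uncounted cannot be seen. The other 7 members overlap no other gene of the table.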

How the data were processed

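Per the labels' protocols, stranded poly(A) libraries were made from 200 ng of total RNA for each of the 8 libraries. Listed without roles in the submitters' processing notes are hg19 (GRCh37), HTSeq 0.11.2, TopHat2 and bcl2fastq 2.18.0.12; the sources used here name no annotation or strand setting. The authors' deposited table holds whole-number read counts per gene. Their deposited RPKM table was recomputed from those counts, the column totals and the exon lengths to within 4.7e-06.

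Symbols came from a table of current names or GENCODE 29, and 188 of 189 list entries matched (DUSP14 did not). The count test was edgeR 4.0.16, run under R 4.3.3 (TMM, filterByExpr, robust quasi-likelihood F test). SE is the log2 fold change divided by √F. The procedure was first tested on simulated data with no odd/even difference and with changes larger than those of the members. That test did not cover changes of the members' size. Adjustment was over all 15286 genes tested. limma 3.58.1 and DESeq2 1.42.0 served as alternatives.

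Members and lists were chosen with earlier results of these data known. Named genes are RRM2, the members, and the 3 smallest adjusted p below 0.05 per list and direction. Cell type markers, genes whose call the block changed and those marked in the text were named after their values were seen.

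Replicate numbers passed the rule used for pairing: after subtracting group means, log2 CPM correlated at 0.251, 0.232, 0.225 and 0.228 between same-numbered libraries. Between the groups, all pairs with both numbers odd or both even correlated at 0.225 to 0.294. The same-number values therefore do not show pairing by number. Only replicate 1 of RRM2_OE matched its own number best, and the shared structure was odd against even numbers. The main test had no block.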

Additional observations from a re-analysis of the deposited data

Results flagged for a closer look

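Among the 20 groups of 4 libraries (10 genes in 2 groups), 1 held a library far from the rest: DUSP4 in RRM2_OE replicate 1 stood at 71.8 CPM, below the other RRM2_OE libraries at 79.3 to 79.8 CPM. Such a gap is flagged by chance in about 1 in 20 groups. Without that library the log2 fold change of DUSP4 was 0.295 (adjusted p = 0.00463, edgeR).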

How the results depend on the processing

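Replicate number as a block gave 2303 genes higher, 2143 lower and 6 members higher. A term for odd and even numbers gave 2427, 2277 and 6. Rises were then 51.8% and 51.6% of calls. At an adjusted p below 0.01, 530 genes were higher, 281 lower and 1 member (DUSP4) higher. limma on log2(RPKM + 1) and on log2(RPKM + 0.1) left 465 and 466 genes lower, so that rises made up 69.2% and 68.7% of calls, against 57.7% with edgeR on counts. Replicates 1 and 3 alone gave 1330 genes lower. Leaving out single libraries gave 808 to 937 genes higher, 542 to 607 lower (545 without RRM2_OE replicate 1 or 3, 542 without MOCK replicate 2) and 2 or 3 members higher. The causes were not tested. The sign of DUSP2 turned in replicates 1 and 3 (-0.15) and ranged from -0.0536 to 0.15 with single libraries left out, and SPRED2 ranged from -0.00972 to 0.14. The block changed no member call other than those of DUSP1, DUSP5 and SPRY2. Of 117 member values under the other alternatives, 109 kept their direction and side of the threshold. Counts were lowest for SPRED1 and SPRY4.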
